A study of Rattus norvegicus with 12 samples.

Results

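The interleukin 1 family was followed through 8 genes in primary rat hepatocyte cultures: the ligand genes Il1a, Il1b, Il18 and Il33, the receptor antagonist gene Il1rn, and the receptor genes Il1r1, Il1rap and Il1r2. The genes were found on the array by their symbol, an older name or the probe description in the array files, which gave 13 of the 41012 probes. All 8 were among the 26534 genes tested, 5 of them with 2 probes each and 3 with 1 probe. The gene now called Il33 is listed in the files under an older provisional name and was matched by its transcript accession.

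The 12 cultures were of hepatocytes, the metabolic cells of the liver, from Sprague-Dawley rats aged 11 weeks, and each was measured on its own 1-colour Agilent array. All cultures had been isolated by collagenase, plated for 24 h in medium with 10% fetal bovine serum and kept for a further 24 h without serum. The 3 male vehicle and 3 female vehicle cultures then received 0.01% ethanol for 6 h, and the 3 male dexamethasone and 3 female dexamethasone cultures received 100 nM dexamethasone, a synthetic glucocorticoid, for 6 h. No group was left in serum or fresh from the liver, so every comparison is between cultures on plastic. Sex is that of the sample titles, since a separate gender field reads male for all 12 samples. Whether the replicates came from separate animals or dishes is not given in the labels, so the p-values reflect scatter between these cultures that could be purely technical.

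Interleukin 1 is the founding cytokine of a family that starts local inflammation and, in the liver, the acute-phase response. The alpha and beta ligands bind the signalling receptor encoded by Il1r1, which then recruits the accessory protein of Il1rap; the complex acts through MyD88, the IRAK kinases and NF-kB. Brakes are built in: the antagonist of Il1rn occupies the receptor without recruiting the accessory protein, and the decoy receptor of Il1r2 binds the ligand but lacks a signalling domain. Il18 and Il33 are relatives with receptors of their own, and interleukin 33 is stored in the nucleus and released when cells are damaged. In the liver, resident macrophages (Kupffer cells) are the usual source of interleukin 1 beta, and glucocorticoids are known to restrain this cytokine system.

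The probes of the genes on which the results turn are given as the array files list them, each 60 bases long and written 5′ to 3′ with no base marked, because they define which part of each transcript was read. Positions are on rat genome build rn3, per the files. The Il1a probe lies at chr3:116820399-116820458 on the minus strand. The Il1r2 probe is placed at chr9:39318068-39320908 and the tested Il1r1 probe at chr9:39463835-39466091, both on the plus strand. The other Il1r1 probe is placed at chr9:39474048-39474579, downstream of the tested one. These 3 receptor probes map to spans of 2841, 2257 and 532 bases, so each match is split on the genome. The Il33 probe shown lies at chr1:233848175-233848234 on the plus strand.
Il1a: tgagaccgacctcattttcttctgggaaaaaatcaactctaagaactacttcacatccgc
Il1r2: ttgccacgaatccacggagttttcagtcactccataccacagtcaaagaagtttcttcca
Il1r1, tested: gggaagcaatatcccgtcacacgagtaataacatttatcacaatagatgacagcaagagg
Il1r1, other: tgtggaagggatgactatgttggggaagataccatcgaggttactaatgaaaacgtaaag
Il33, other: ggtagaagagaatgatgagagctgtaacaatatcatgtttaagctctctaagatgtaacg

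The remaining probes are named by position only. The tested Il1b probe lies at chr3:116870289-116870348 and the other at chr3:116870038-116870097, both on the minus strand and on the same chromosome as Il1a. The tested Il1rn probe lies at chr3:2613130-2613189 and the other at chr3:2609497-2610531. The Il1rap probe lies at chr11:76171229-76171288, the Il18 probes at chr8:53962059-53962118 (tested) and chr8:53946488-53946547, and the tested Il33 probe at chr1:233849282-233849341. Which of these positions are exon or UTR is not given here, as no rn3 annotation was used.

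The stretches before the transcription start sites of Il1a, Il1b and Il1r1 are shown because Il1a and Il1b fell together and Il1r1 rose with Il1r2 in the results that follow. They are the 250 bases upstream of the start in RefSeq, build GRCr8. Of the 8 genes, 7 matched this table, with 2 start sites each for Il1rap and Il33; Il1r2 was not among them. Capitals mark matches to a TATA box (TATAAA), an AP-1 site (TGANTCA) or an NF-kB site. All motifs were searched on both strands, save the TATA box, which was searched on the transcribed direction alone. The Il1a stretch is chr3:136990018-136990267 and the Il1b stretch chr3:137036582-137036831, both on the minus strand, and the Il1r1 stretch is chr9:50034133-50034382 on the plus strand.
Il1a upstream: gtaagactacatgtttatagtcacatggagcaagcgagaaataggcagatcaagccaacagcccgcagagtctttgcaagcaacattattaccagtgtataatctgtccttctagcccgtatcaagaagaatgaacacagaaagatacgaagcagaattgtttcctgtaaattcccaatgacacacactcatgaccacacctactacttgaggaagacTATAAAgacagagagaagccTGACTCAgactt
Il1b upstream: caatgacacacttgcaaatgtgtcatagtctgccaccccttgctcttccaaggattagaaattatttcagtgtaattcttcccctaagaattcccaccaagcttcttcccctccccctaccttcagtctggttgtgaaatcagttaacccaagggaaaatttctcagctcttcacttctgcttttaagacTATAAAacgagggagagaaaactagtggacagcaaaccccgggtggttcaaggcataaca
Il1r1 upstream: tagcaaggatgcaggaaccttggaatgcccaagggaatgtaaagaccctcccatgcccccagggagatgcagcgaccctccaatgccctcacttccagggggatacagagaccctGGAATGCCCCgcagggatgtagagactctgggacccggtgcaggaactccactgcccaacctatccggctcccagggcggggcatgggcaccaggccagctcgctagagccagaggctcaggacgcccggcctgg

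A TATA box was found in the Il1a stretch, 26 bases before the start, and in the Il1b stretch, 54 bases before it. Over all 33465 upstream windows of this length, 8.06% held one. Il1a also held an AP-1 match 5 bases before the start, which 6.34% of windows hold, and Il1r1 held an NF-kB match 125 bases before it, which 6.33% hold. Among the other genes, Il1rap held an NF-kB match upstream of both start sites and the second Il33 start site a TATA box 23 bases away. The glucocorticoid response element was searched as its palindrome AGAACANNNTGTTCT, which 0.0120% of windows hold, and as the single arm AGAACA contained in it, which 17.5% hold. Neither was found in the window of any of the 7 genes, which says only that these letters are not within 250 bases upstream of those starts.

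Levels are log2 processed signals minus the 75th percentile of the same array, so 0 is the brightness of the upper quartile, and levels of different probes are not compared. A probe counted as measured on an array when the scanner software marked it well above background. On the 4 arrays of slide 1 (all 3 male vehicle arrays and male dexamethasone replicate 1), 46.0% to 66.5% of probes were above background, against 72.4% to 80.4% on the other 8, so low values in male vehicle are the least precise. Slide 2 held the other male dexamethasone arrays with female vehicle replicates 1 and 2, and slide 3 held female vehicle replicate 3 with the female dexamethasone arrays. Fkbp5, a direct glucocorticoid target, rose by 2.93 ± 0.18 in males and 2.84 ± 0.18 in females (log2 difference ± SE). Hepatocyte markers were above background on every array for 10 of 10 genes. The Kupffer cell and macrophage markers were also present, with 13 of 13 genes on the array above background on every array. RNA of macrophage genes was thus present beside that of hepatocytes, and in such bulk samples fewer cells of a type and less RNA per cell cannot be told apart.

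The question of the first comparisons is how the glucocorticoid changed the family in each sex. In males and in females the same 4 of the 8 genes changed: Il1a and Il1b, the genes of both classical ligands, fell, and Il1r2 and Il1r1, the decoy and the signalling receptor, rose. Il1rn, Il1rap, Il18 and Il33 did not pass the test in either sex. The test was limma on all 12 arrays with Benjamini-Hochberg adjustment over all genes, called at an adjusted p under 0.05. By that rule 10.1% of all genes were called in males, 5.2% higher and 4.88% lower, and 4.14% in females, 3.01% higher and 1.13% lower. For the family this was 2 higher and 2 lower of 8 in each sex. In the same 4 genes the vehicle and dexamethasone arrays did not overlap, which held for 25.7% of all genes in males and 33.8% in females.

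**Figure D1:**
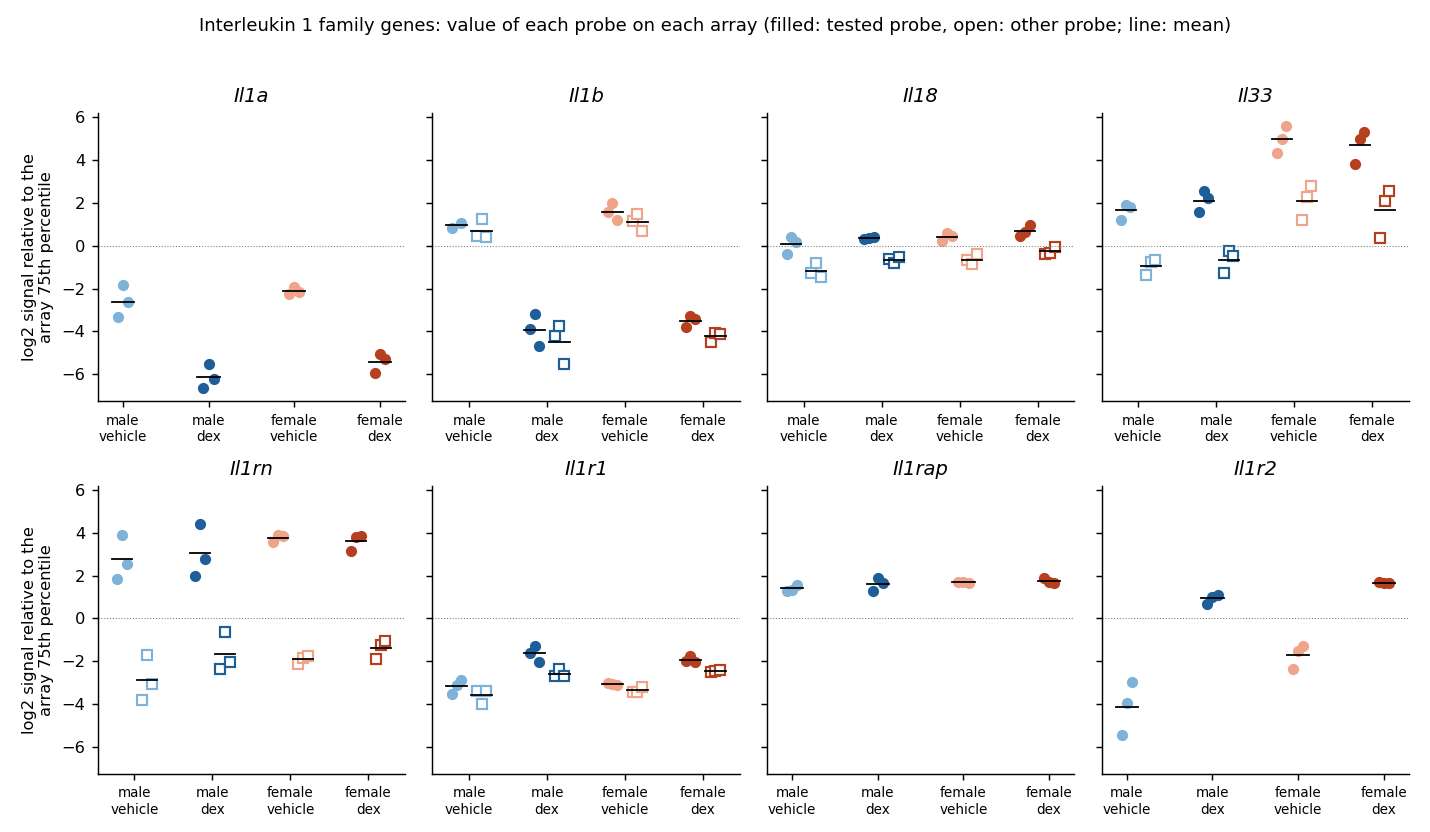
Each panel plots 1 gene, with the 4 groups on the x axis and, on the y axis, log2 signal minus the 75th percentile of its array; each point is 1 array, filled circles are the tested probe, open squares the other probe where there is one, and lines are group means. Il1a and Il1b drop and Il1r2 climbs with dexamethasone in both sexes, Il33 is higher in the female cultures, and Il1rap stays between 1.29 and 1.90 on all 12 arrays.

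Il1b, the gene of the secreted beta ligand, stood at 0.81 and 1.08 in male vehicle replicates 1 and 3, with the spot of replicate 2 marked as an outlier and left out. It stood at -3.91, -3.18 and -4.69 in the male dexamethasone arrays. In female vehicle it read 1.59, 1.98 and 1.21, and in female dexamethasone -3.80, -3.27 and -3.42. All vehicle arrays of either sex thus lay above 0 and all dexamethasone arrays below -3. Il1b fell by 4.87 in males (29.2-fold, SE 0.39, adjusted p = 0.0003, limma) and fell by 5.09 in females (34.1-fold, SE 0.35, adjusted p = 0.00011, limma). With normexp background correction the falls were 14.9-fold and 20.8-fold, both called. The probe was well above background on all 12 arrays.

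A second Il1b probe, which reads a neighbouring stretch of the transcript, is spotted 10 times on each array and so gives a measure of error within the array. Its mean was 0.44, 1.26 and 0.39 in male vehicle and -4.22, -3.73 and -5.50 in male dexamethasone. In females it was 1.13, 1.50 and 0.70 in vehicle and -4.49, -4.05 and -4.10 in dexamethasone, with 9 of 10 spots used on 3 arrays and all 10 on the rest. The SD between the spots of an array lay between 0.061 and 0.25, far below the distance between the treatments. By this probe Il1b fell by 5.18 in males (SE 0.41) and fell by 5.32 in females (SE 0.41; adjusted p = 0.00011 in both, limma over all probes). Male dexamethasone replicate 3 was the lowest array by both probes.

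**Figure D2:**
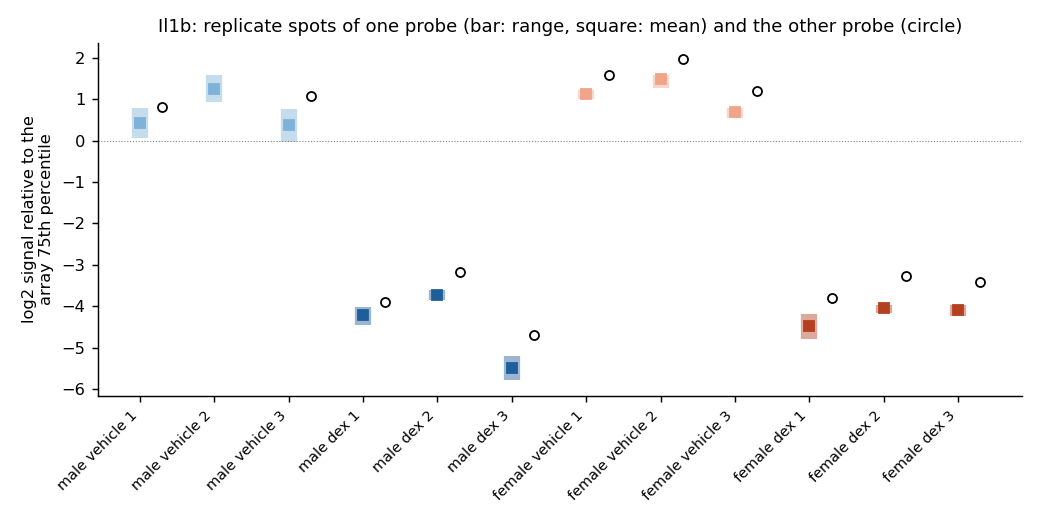
The x axis lists the 12 arrays and the y axis gives log2 signal minus the 75th percentile of its array; bars span the replicate spots of the 10-spot Il1b probe, squares are their mean and circles are the tested probe, which is missing for male vehicle replicate 2. The spots of an array lie close together and the dexamethasone arrays lie between -3.18 and -5.50 by either probe.

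Il1a encodes the alpha ligand, which can act from inside the cell or at its surface. It was measured at -3.35, -1.83 and -2.63 in male vehicle and at -6.63, -5.50 and -6.20 in male dexamethasone. In females it was -2.26, -1.94 and -2.14 in vehicle and -5.95, -5.04 and -5.28 in dexamethasone. The treated arrays were lower in each sex with no overlap, and all 6 same-numbered pairs moved down. Il1a fell by 3.51 in males (11.4-fold, SE 0.39, adjusted p = 0.001, limma) and fell by 3.31 in females (9.93-fold, SE 0.39, adjusted p = 0.0015, limma). With normexp background correction they were smaller, -1.68 in males (3.21-fold) and -1.83 in females (3.55-fold), and still called. The probe was not well above background on 3 arrays, 1 each in male vehicle, male dexamethasone and female dexamethasone, so the lowest values are uncertain. It was kept through female vehicle, the only group with all 3 arrays above background, which favours a fall from that group.

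Il1r2, the gene of the decoy receptor, moved the other way. It was at -5.41, -3.92 and -2.99 in male vehicle, where 1 of 3 arrays was above background, and at 0.69, 1.01 and 1.10 in male dexamethasone. In female vehicle it was at -2.37, -1.51 and -1.31 and in female dexamethasone at 1.69, 1.63 and 1.67, all above background. The treated arrays lay close together in each sex, while the male vehicle arrays spread over more than 2 log2 units. Il1r2 rose by 5.04 in males (33.0-fold, SE 0.49, adjusted p = 0.00059, limma) and by 3.39 in females (10.5-fold, SE 0.49, adjusted p = 0.0048, limma), although after quantile normalization the female rise of 3.37 missed the threshold (adjusted p = 0.14). The male rise was 10.9-fold with normexp background correction and 59.7-fold after quantile normalization, both called, so its size is uncertain. The order of the group means was male vehicle, female vehicle, male dexamethasone, female dexamethasone, and no neighbouring groups overlapped. The last 2 differed by 0.73 (95% interval -0.36 to 1.82), which did not pass the test.

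Il1r1, the gene of the signalling receptor, rose by less. Its tested probe was at -3.51, -3.09 and -2.87 in male vehicle and -1.61, -1.27 and -2.02 in male dexamethasone. In females it was at -3.01, -3.05 and -3.10 in vehicle and -1.98, -1.75 and -2.04 in dexamethasone. The rise was 1.53 in males (2.88-fold, SE 0.22, adjusted p = 0.0029, limma) and 1.13 in females (2.19-fold, SE 0.22, adjusted p = 0.018, limma). The other probe, further along the gene, gave 1.00 in males and 0.90 in females (SE 0.19; adjusted p = 0.011 and 0.030 over all probes, limma). Both probes therefore passed in both sexes. In male vehicle, however, the tested probe was above background on 2 of 3 arrays and the other probe on 1 of 3. With normexp background correction the male rise was 1.67-fold and called. The female rise was then 1.68-fold and close to the threshold (adjusted p = 0.0492, limma). By the tested probe the male rise missed the threshold with the male groups fitted on their own (adjusted p = 0.062, limma). The female rise missed it when any 1 female dexamethasone array, or female vehicle replicate 1 or 3, was left out (adjusted p 0.056 to 0.086).

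Il1rap, the gene of the accessory protein shared by the receptors for interleukins 1 and 33, was the steadiest member. It lay between 1.30 and 1.57 in male vehicle, 1.29 and 1.88 in male dexamethasone, 1.65 and 1.70 in female vehicle, and 1.64 and 1.90 in female dexamethasone. The difference with dexamethasone was 0.20 in males (95% interval -0.18 to 0.58) and 0.07 in females (-0.31 to 0.45). These intervals hold no change larger than 1.5-fold in either direction.

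Il1rn, the gene of the receptor antagonist, varied more between replicates than between treatments. The tested probe read 1.85, 3.87 and 2.53 in male vehicle and 1.97, 4.41 and 2.77 in male dexamethasone, with replicate 2 highest in both. In females it read 3.55, 3.88 and 3.85 in vehicle and 3.16, 3.79 and 3.84 in dexamethasone. The difference was 0.30 in males (95% interval -1.02 to 1.62) and -0.17 in females (-1.48 to 1.15) in the fit that does not use the pairing. With replicate numbers as a block within each sex the intervals were -0.054 to 0.65 in males and -0.52 to 0.19 in females, and neither was called. The other probe was dimmer and read -3.81, -1.70 and -3.05 in male vehicle against -2.36, -0.62 and -2.03 in male dexamethasone. By that probe the difference was 1.18 in males (SE 0.54, adjusted p = 0.18 over all probes, limma) and 0.50 in females (SE 0.54, adjusted p = 0.76), so the probes gave opposite signs in females and neither was called. Its same-numbered pairs were all higher with dexamethasone, by 1.45, 1.08 and 1.02 in males and 0.24, 0.56 and 0.71 in females. The fit with replicate numbers as a block was not made for this probe.

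Il18, whose product needs caspase 1 to become active, lay between -0.41 and 0.97 on all 12 arrays by its tested probe. The difference with dexamethasone was 0.30 in males (95% interval -0.19 to 0.79) and 0.27 in females (-0.22 to 0.77). The other Il18 probe gave 0.50 and 0.38, and neither probe passed.

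Il33 also showed no call with dexamethasone. The difference was 0.46 in males (95% interval -0.49 to 1.41) and -0.26 in females (-1.21 to 0.68) by the tested probe.

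**Figure D3:**
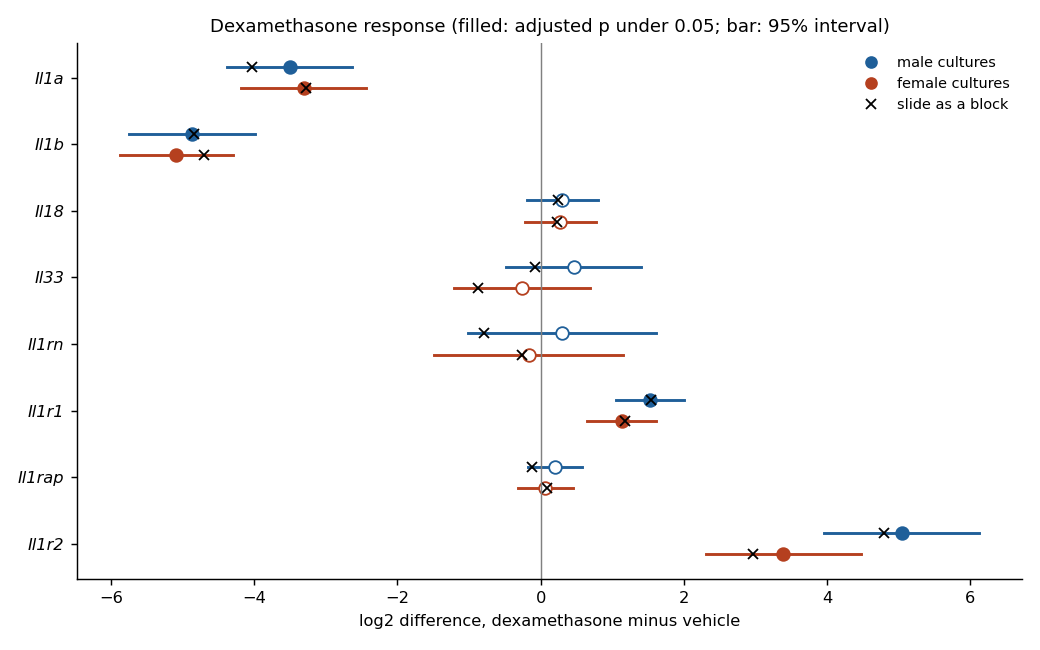
The x axis gives the log2 difference, dexamethasone minus vehicle, and the y axis the 8 genes; blue is male and red is female, circles are filled where the adjusted p was under 0.05, bars are 95% intervals and crosses are the value with slide as a block. Il1a and Il1b lie left of 0 and Il1r1 and Il1r2 right of it in both sexes, with the blocked values on the same side.

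Slide and group were partly confounded, and with slide as a block the male response rests on slide 1 and the female response on slide 3. The differences kept their size there. In males they were -4.03 for Il1a (adjusted p = 0.023), -4.85 for Il1b (0.017) and 4.80 for Il1r2 (0.030), all called, and 1.54 for Il1r1, which missed the threshold (0.062, limma). In females Il1a (-3.28, adjusted p = 0.041) and Il1b (-4.71, 0.014) were called, while Il1r2 (2.97, 0.10) and Il1r1 (1.18, 0.15) were not (limma). With slide 3 fitted on its own, where vehicle is 1 array taken to vary like the others, Il1a, Il1b and Il1r2 were called in females. With slide 1 on its own, where dexamethasone is 1 array, no gene was called in males (2106 at an unadjusted p under 0.05, limma).

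The test of whether the sexes responded differently called none of the 8 genes (limma), and 0.106% of all genes. At an unadjusted p under 0.05 it held 1 of the 8, Il1r2, whose female response minus its male response was -1.65 (SE 0.70, adjusted p = 0.38). The 95% interval of that difference ran from -3.19 to -0.11, with 2 of the 3 male vehicle arrays behind it not above background. The value was -0.38 with normexp background correction and -2.53 after quantile normalization, and -1.0 without male vehicle replicate 1. For Il1b the female response differed from the male one by -0.22 (95% interval -1.41 to 0.96) and for Il1a by 0.20 (-1.03 to 1.43), so differences of more than 1 log2 unit between the sexes were within the error. For Il1r1 it was -0.40 (-1.07 to 0.28).

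Females against males addresses a second question, the level of the family in each sex. These comparisons use the same arrays as the responses. In vehicle, Il33 and Il1r2 were higher in the female cultures and no gene of the family was lower; 2 of 8 were called, both higher, against 13.8% of all genes (5.83% higher in females). In dexamethasone Il33 alone was called, 1 of 8 against 2.89% of all genes (1.18% higher in females). The arrays did not overlap for 4 genes in vehicle (Il1b, Il1r2, Il1rap and Il33) and for 3 in dexamethasone (Il1r2, Il18 and Il33), while 31.2% and 32.3% of all genes did not overlap.

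Il33 was measured on all 12 arrays by both probes. The tested probe read 1.21, 1.90 and 1.83 in male vehicle and 1.57, 2.53 and 2.22 in male dexamethasone. It read 4.34, 4.98 and 5.58 in female vehicle and 3.81, 5.00 and 5.30 in female dexamethasone. Every female array was thus above every male array. The female level was 3.32 higher in vehicle (10.0-fold, SE 0.43, adjusted p = 0.0016, limma) and 2.60 higher in dexamethasone (6.06-fold, SE 0.43, adjusted p = 0.012, limma). The other probe read -1.35, -0.77 and -0.66 in male vehicle and 1.19, 2.26 and 2.77 in female vehicle. It gave differences of 3.00 in vehicle (SE 0.55, adjusted p = 0.0072 over all probes) and 2.34 in dexamethasone (SE 0.55, adjusted p = 0.0495, limma).

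With slide as a block the Il33 difference was 2.21 in vehicle (adjusted p = 0.20) and 1.42 in dexamethasone (adjusted p = 0.59, limma), and no gene of the family was called in either. No slide holds vehicle arrays of both sexes or dexamethasone arrays of both sexes, so no value within a slide could be given. Without female dexamethasone replicate 2 or 3 the Il33 call in dexamethasone was lost (adjusted p = 0.065 and 0.053). Of the markers of stellate cells, the vitamin A storing cells around the liver sinusoids, 3 of 7 tested were called higher in female vehicle: Lrat, Col3a1 and Pdgfrb. In male vehicle, Lrat, Pdgfrb and Hgf were not above background on any array. The summed level of the 7 stellate markers on the array, as multiples of the 75th percentile signal, was 4.32 to 5.95 in male vehicle and 6.10 to 9.31 in female vehicle. In dexamethasone it was 2.34 to 4.08 in males and 3.87 to 4.39 in females, which overlap, and Lrat and Pdgfrb were called higher in females. The summed level of 6 cholangiocyte (bile duct cell) markers was 3.13 to 13.5 in male vehicle and 13.7 to 27.2 in female vehicle. In dexamethasone males (7.32 to 9.43) and females (8.92 to 14.8) overlapped. Of the 6, Epcam alone was called in vehicle, lower in females. Median female minus male differences of 13 macrophage markers were 0.86 in vehicle and 0.91 in dexamethasone. They were 0.51 and 0.32 for 5 lymphocyte markers and -0.47 and -0.16 for 10 hepatocyte markers. For 6 sinusoidal endothelial markers they were 0.30 and 1.02, with 0 called in either (limma). Summed levels of the 7 endothelial markers on the array overlapped in vehicle (0.76 to 2.85 in males, 1.15 to 2.37 in females). In dexamethasone they did not (0.74 to 1.58 in males, 1.68 to 2.97 in females). In male vehicle 4 of the 7 were never marked above background, nor were 2 in male dexamethasone. The part of any of these cells in the Il33 difference was not tested.

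Il1r2 was 2.38 higher in female than in male vehicle (5.21-fold, SE 0.49, adjusted p = 0.012, limma), against a male level that 1 of 3 arrays measured, so the fold is uncertain. With normexp background correction it was 0.95 higher (1.93-fold, adjusted p = 0.0038). It was not called with slide as a block (1.81, adjusted p = 0.42), with the vehicle groups fitted on their own (2.38, adjusted p = 0.088) or after quantile normalization (3.25, adjusted p = 0.050).

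**Figure D4:**
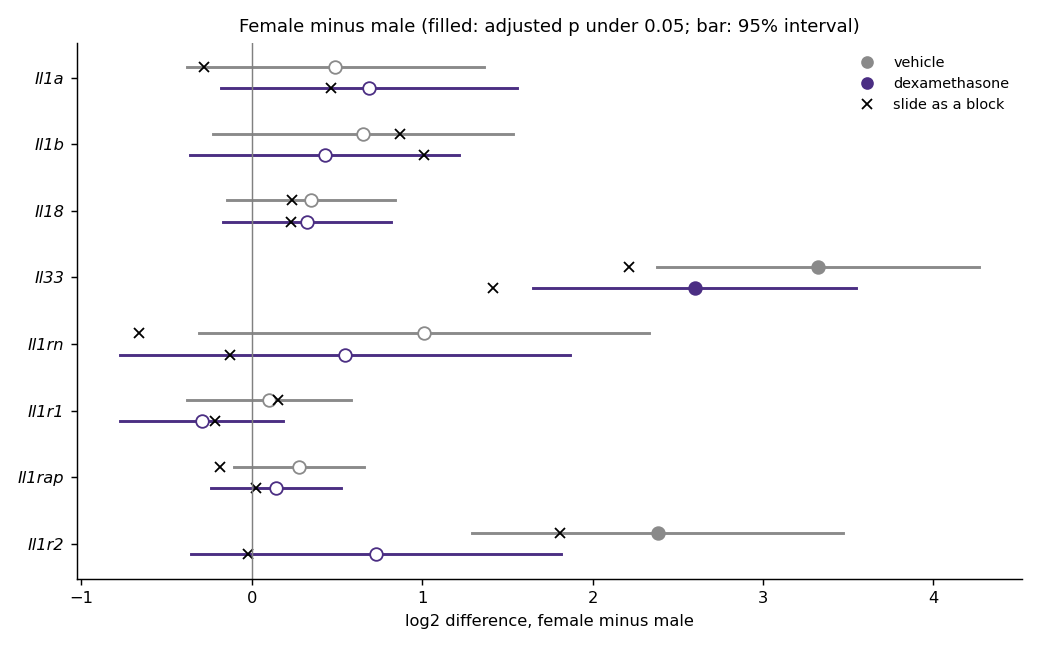
The x axis gives the log2 difference, female minus male, and the y axis the 8 genes; grey is vehicle and purple dexamethasone, circles are filled where the adjusted p was under 0.05, bars are 95% intervals and crosses are the value with slide as a block. Il33 lies at 3.32 and 2.60 and Il1r2 at 2.38 in vehicle, and the blocked Il33 values of 2.21 and 1.42 lie nearer to 0.

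Macrophage RNA was compared beside the fall of Il1a and Il1b. Of 13 Kupffer cell and macrophage markers tested, 0 were called in either response (limma), and 0 had an unadjusted p under 0.05 in either sex. Their median log2 difference was 0.18 in males and -0.02 in females. Their summed level was 48.8 to 100 in male vehicle and 53.2 to 112 in male dexamethasone, and 49.7 to 108 in female vehicle and 57.0 to 127 in female dexamethasone. Of 6 neutrophil markers on the array, 6 were above background on no array of male vehicle, the dimmest group, 1 on none of male dexamethasone (S100a8), 1 on none of female vehicle (Ngp) and 2 on none of female dexamethasone (both of these). Stellate markers were lower with dexamethasone, with medians of -0.42 in males and -0.70 in females over 7 genes. Pdgfrb was called lower in females, and the summed levels are those given beside Il33. Hgf was called in males, but it was above background on no male array of either treatment, so no male direction is given for it. The 6 sinusoidal endothelial markers tested had medians of -0.85 in males and 0.0046 in females, where 0 were called (1 at an unadjusted p under 0.05, limma). In males Emcn and Lyve1 were called, counted as 1 higher and 1 lower. Emcn was above background on no male array of either treatment, so no male direction is given for it. The 5 lymphocyte markers tested had a median of -0.71 in males, where Klrb1a was called lower (3 at an unadjusted p under 0.05, limma). In females it was -0.38, with 0 called (1 at an unadjusted p under 0.05, limma). The 6 cholangiocyte markers had medians of -0.18 in males and -0.50 in females, with Cldn4 alone called, higher in both (limma). Medians of the 10 hepatocyte markers were 0.04 and 0.29. The part of these cells in the fall of Il1a and Il1b was not tested. Between the sexes in vehicle, 2 of the 13 macrophage markers, Csf1r and Msr1, were called higher in females.

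Beyond the family itself, 37 genes of related receptors and signalling were listed, of which 28 were tested. In males 4 rose and 0 fell (14.3% of the list, 10.1% of all genes), and in females 0 were called (limma; 4 at an unadjusted p under 0.05). The test of whether the sexes responded differently called 0 of the 28 genes (4 at an unadjusted p under 0.05, limma). The list medians were -0.06 and 0.03, against -0.07 and -0.02 over all genes. Those that rose in males were Irak2 (1.36 ± 0.26, adjusted p = 0.011), Irak3 (1.42 ± 0.33, adjusted p = 0.023), Map3k3 (0.66 ± 0.14, adjusted p = 0.015) and Tab2 (1.17 ± 0.30, adjusted p = 0.036; log2 difference ± SE, limma). Irak2 encodes a kinase of the receptor complex, Irak3 (IRAK-M) a brake on it, Map3k3 a kinase upstream of NF-kB, and Tab2 an adaptor of the TAK1 kinase. Tab2 was on no male vehicle array above background, so its rise was at least 1.42-fold. In females Irak2 was 0.78 higher with dexamethasone without overlap of the arrays, but was not called (SE 0.26, adjusted p = 0.13, limma). With slide as a block, or with the male groups fitted on their own, 0 genes of the list were called in males.

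Irak3 was at -1.99, -3.39 and -2.60 in male vehicle and -0.80, -1.69 and -1.25 in male dexamethasone. In females it was at -0.37, -0.72 and -0.73 in vehicle and -0.80, -1.04 and -1.11 in dexamethasone. Its female response minus its male one was -1.80 and was not called (SE 0.46, adjusted p = 0.13, limma). With array weights this difference was -1.91 and called (adjusted p = 0.047), and with slide as a block -2.12 and not called (0.32, limma). Irak3 was above background on 2 of 3 male vehicle arrays, so its values in that group are uncertain. The female vehicle arrays were above all male arrays of both treatments, and Irak3 was 2.06 higher in female than in male vehicle (SE 0.33, adjusted p = 0.0041, limma). Il1rl1, the receptor gene for interleukin 33, was at -1.53, -3.55 and -1.52 in male vehicle and -0.19, 0.08 and 0.08 in female vehicle. It was 2.19 higher in female vehicle (4.57-fold, SE 0.61, adjusted p = 0.038) and 2.64 higher in female dexamethasone (6.23-fold, SE 0.61, adjusted p = 0.047, limma). In male vehicle it was above background on 2 of 3 arrays. The vehicle call was lost with array weights (adjusted p = 0.086) and the dexamethasone call after quantile normalization (adjusted p = 0.059, limma). Il1rl1 did not pass in either response in the fit without blocks. With replicate numbers as a block within each sex its male response of -0.79 was called (adjusted p = 0.036, limma). With slide as a block neither gene was called between the sexes: Irak3 was 2.79 higher in female vehicle (adjusted p = 0.085), and Il1rl1 2.49 higher in vehicle (0.39) and 2.61 higher in dexamethasone (0.55, limma), so the calls for Il33 and its receptor gene were both lost there. Of the 28 genes, 4 were called higher and 2 lower in female vehicle, the lower ones being Tollip (-0.72) and Peli2 (-1.08).

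A further 4 genes of this list were followed whatever their values, and none was called in either response in the fit without blocks or weights. Myd88, the adaptor of the receptor complex, differed by 0.01 in males and -0.21 in females (SE 0.27). Sigirr, an inhibitory receptor of the family, differed by -0.29 and 0.17 (SE 0.21), and Il18bp, a soluble trap for interleukin 18, by 0.57 and 0.25 (SE 0.35). Il18r1, the interleukin 18 receptor gene, was above background on 0 male vehicle and 0 female dexamethasone arrays, so no fold is given. In females the difference was -1.19 (95% interval -2.03 to -0.36, adjusted p = 0.12, limma), and -0.20 with normexp background correction. With array weights it was -1.14 and called (adjusted p = 0.010, limma). Il18r1 was kept through female vehicle alone, which favours a fall from that group.

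Of 21 genes of maturation and release, 19 were tested. In males 3 rose and 2 fell (26.3%, 10.1% of all genes), and in females 2 rose and 1 fell (15.8%, 4.14% of all genes). The test of whether the sexes responded differently called 0 of the 19 (0 at an unadjusted p under 0.05, limma). P2rx7, the ATP-gated channel that triggers release of interleukin 1 beta in macrophages, rose in both sexes. It stood at -5.04, -5.06 and -4.74 in male vehicle, where 0 arrays were above background, and at -3.38, -3.35 and -3.62 in male dexamethasone, a rise of at least 1.29-fold (adjusted p = 0.002). In females it rose by 0.95 (1.93-fold, SE 0.19, adjusted p = 0.024, limma). Nek7, a partner of the NLRP3 inflammasome, rose by 0.81 in males and 0.94 in females (SE 0.22; adjusted p = 0.046 and 0.042, limma).

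Nlrp3, the sensor of that inflammasome, fell in females. It was at -5.50, -4.61 and -4.72 in female vehicle and -7.13, -6.50 and -6.67 in female dexamethasone, where 1 of 3 arrays was above background, a fall of 1.83 (SE 0.34, adjusted p = 0.015, limma). In males it passed as well (adjusted p = 0.018, limma), but 0 vehicle arrays and 1 dexamethasone array were above background. Neither a male fold nor a male direction is given, although it is counted among the 2 that fell there. Nlrp3 was kept through female vehicle, the only group with all 3 arrays above background, which favours a fall from that group. In males Txnip, which binds NLRP3, rose by 2.34 (5.07-fold, SE 0.57, adjusted p = 0.029), and Casp8, a protease that can cleave interleukin 1 beta, fell by 0.68 (SE 0.19, adjusted p = 0.049994, limma). In females Txnip differed by 1.48 and Casp8 by -0.37 without passing. With slide as a block 1 gene of the list was called in males and 0 in females.

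The 40 genes known to be induced by interleukin 1 were the group with the most calls, 36 of them tested. In males 13 fell and 2 rose (41.7%, 10.1% of all genes), and in females 8 fell and 1 rose (25%, 4.14% of all genes). The list medians were -0.45 and -0.37, against -0.07 and -0.02 over all genes. Many of these genes are also targets of other inflammatory signals and of glucocorticoids directly, and the list was drawn up with results of these data known. With slide as a block 3 fell in males and 4 in females, and with each sex fitted on its own 5 fell in males and 13 in females.

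Ccl7, a chemokine that draws monocytes, fell by 3.60 in males and fell by 4.67 in females (12.1-fold and 25.5-fold, SE 0.23; adjusted p = 4.5e-05 and 6.1e-06, limma). It was at 3.16, 3.79 and 3.40 in male vehicle and -0.33, 0.14 and -0.27 in male dexamethasone. In females it was at 3.83, 3.93 and 4.47 in vehicle and -0.74, -0.60 and -0.44 in dexamethasone, so the treatments did not overlap in either sex. The neighbouring chemokine gene Ccl2 fell by 2.23 in males and fell by 3.31 in females (SE 0.25; adjusted p = 0.00097 and 8.4e-05, limma). Cxcl10, a chemokine for T cells, fell by 3.04 in males and fell by 2.69 in females (SE 0.44; adjusted p = 0.0033 and 0.0099, limma).

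Csf2, the gene of a growth factor for granulocytes and macrophages, fell by 1.63 in males and fell by 2.73 in females (SE 0.23; adjusted p = 0.0027 and 0.00018, limma). Il6, the main inducer of acute-phase genes, fell by 2.07 in females (4.20-fold, SE 0.28, adjusted p = 0.0029, limma). Ptgs2, the inducible cyclooxygenase, was on 3 female vehicle arrays and 0 female dexamethasone arrays above background, a fall of at least 6.08-fold (adjusted p = 0.00022). Both passed in males too (adjusted p = 0.0099 and 0.0029, limma) and are counted among the 13 that fell there. In males 0 vehicle arrays were above background for either gene, against 1 dexamethasone array for Il6 and 0 for Ptgs2. The lowest signal above background was -4.60 to -3.37 on male vehicle arrays and -7.23 to -5.74 on male dexamethasone arrays. Neither a male fold nor a male direction is given. Il6 and Ptgs2 were kept through female vehicle, the only group with all 3 arrays above background. The sexes did not differ in response by the test for any of these 36 genes (0 called, 6 at an unadjusted p under 0.05, limma), which does not show that they responded alike.

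**Figure D5:**
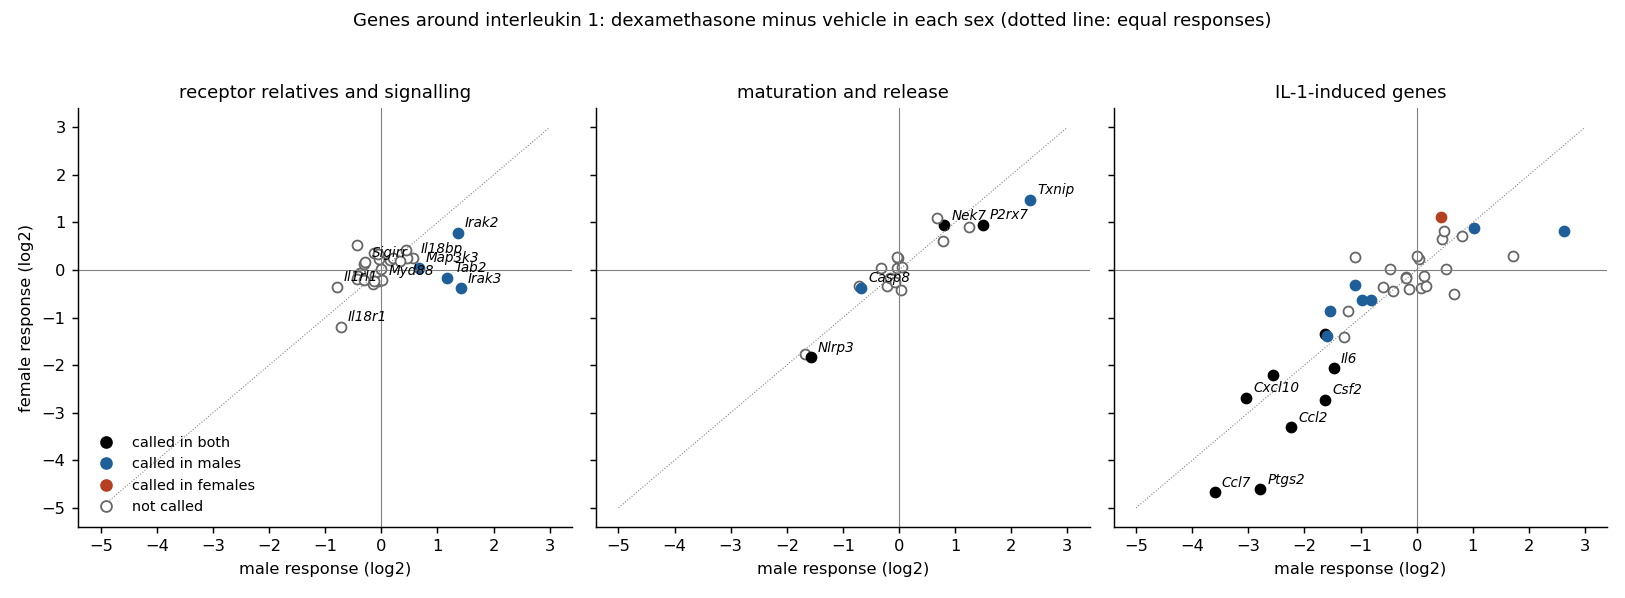
Each point is 1 gene, with the male response on the x axis and the female response on the y axis (log2, dexamethasone minus vehicle), for related receptors and signalling (left), maturation and release (middle) and genes induced by interleukin 1 (right); black is called in both sexes, blue in males, red in females and open in neither, and the dotted line marks equal responses. The chemokine genes Ccl7, Ccl2 and Cxcl10 lie at the lower left of the right panel, and Irak3 at 1.42 in males and -0.38 in females.

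The genes with the most similar pattern over the arrays were named for the 4 genes that changed, by Pearson's r over the arrays on which both genes were above background. The vehicle and dexamethasone arrays form separate clusters, so these values describe mostly the step between treatments and carry no test. Il1a was nearest to Il1b (r = 0.995 over 8 arrays), then to Tnfrsf14 and Zfp36l1. After Il1a, Il1b was nearest to Ccl7 (r = 0.977 over 11 arrays) and Bambi (0.972). Il1r1 was nearest to Klf9 (0.979), Lrp6 (0.978) and Edem1 (0.975), each over 11 arrays. Il1r2 was nearest to Cldn1 (0.993), Akr1c14 (0.987) and Cebpd (0.984), each over 10 arrays. Klf9, a transcription factor gene induced by glucocorticoids, differed by 2.47 in males and 2.31 in females, and Cldn1, a tight junction gene, by 2.88 and 3.02.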

How the data were processed

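Per the file headers, the deposited spot intensity values were read by Agilent Feature Extraction 9.5.3.1 (9.5 in the submitters' processing notes) and are background-subtracted processed signals on a linear scale, not scaled between arrays; the authors' deposited value table holds equal intensity values (45018 of 45018 on each array). Here outlier-marked spots were left out, spots of a probe were averaged as log2 values and each array's 75th percentile was subtracted. Probes above background on all 3 arrays of a group were kept (30980), and each gene was tested on its brightest probe. Il1a, Il6, Ptgs2, Nlrp3 and Il18r1 were kept through female vehicle alone, which favours a fall from that group. One limma 3.58.1 model (R 4.3.3) with 4 group means was fitted to 12 arrays, two-sided, with Benjamini-Hochberg adjustment, and was tested on simulated data. Folds written "at least" set the brighter mean against the higher of the probe's own value and each array's lowest signal above background. They take no account of scatter between arrays.

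Same-numbered arrays of a sex deviated together (6 correlations, 0.26 to 0.46; other pairs -0.28 to -0.00025), so the title numbers were taken as pairs in an added alternative. Arrays give no read depth; their number limits precision. The members and lists were chosen with earlier results of these data known. Named list genes were those called without overlap between groups, at most 6 a list by p, and 6 fixed signalling genes.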

Additional observations from a re-analysis of the deposited data

Results flagged for a closer look

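By the tested Il1rn probe all 3 male pairs of same-numbered arrays were higher with dexamethasone (0.11, 0.54 and 0.24) and all 3 female pairs were lower (-0.40, -0.09 and -0.01). The female response minus the male one was -0.46, and the interaction test did not pass (adjusted p = 0.899 over all probes, limma). The other Il1rn probe was higher in all 3 pairs of both sexes.

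By the other Il33 probe all 3 male pairs were higher (0.09, 0.54 and 0.17) and all 3 female pairs lower (-0.81, -0.17 and -0.19). The difference was -0.66 (adjusted p = 0.826 over all probes, limma), and by the tested probe 2 of the 3 female pairs were lower.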

How the results depend on the processing

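Of 522 member values under the alternatives (scaling, background, filter, probe, blocks, weights, arrays fitted), 476 kept direction and side of the threshold, 15 lost the call, 0 gained one and 31 turned sign. Leaving out 1 array gave 456, 7, 0 and 17 of 480. No value called in the report turned sign.

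Of the family, the filter for probes above background on all 12 arrays (5 genes tested, without Il1a, Il1r1 and Il1r2) left 1 call in males, 1 in females and 1 in vehicle between the sexes. The slide block left 2 in females, 0 between the sexes in vehicle and 0 in dexamethasone, and fitting within 1 slide left 0 in males (2106 genes at an unadjusted p under 0.05, limma). In vehicle between the sexes, quantile normalization and fitting the 2 groups alone left 1 each. Leaving out 1 array left 0 to 1 between the sexes in dexamethasone.

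With replicate numbers as a block the family's calls were the same genes in each comparison, and with the block within each sex, which allows no comparison between the sexes, in both responses and their difference; over all genes the block within each sex called 4174 in males and 1789 in females, against 2676 and 1098. Over all genes normexp with offset 50 called 12379 between the sexes in vehicle against 3655, and moved the median of all genes there from -0.06 to -0.38 and in males from -0.07 to -0.25. Over all alternatives that kept every array or 1 slide or pair of groups, the genes called ran from 0 to 11122 in males, 300 to 4925 in females, 0 to 6682 for the difference of responses, 131 to 12525 between the sexes in vehicle and 21 to 5136 in dexamethasone; the highest came without the filter on dim probes in males, the difference of responses and vehicle, and with array weights in females and dexamethasone. The split of male calls was 1381 higher and 1295 lower, 2275 and 1129 after quantile normalization, 1015 and 2167 with array medians, and 910 and 3071 with normexp. In vehicle between the sexes it was 1547 and 2108, and 2908 and 1725 after quantile normalization. With the 2 groups alone 243 genes were called in males and 2675 in females, and of genes induced by interleukin 1, 5 fell in males and 13 in females; the cause was not tested.

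Signs turned for uncalled values. With normexp these were Il1a (-0.15 for the difference of responses, -0.070 in vehicle and -0.21 in dexamethasone between the sexes), Il1rn (0.0008, female response), Il1r1 (0.0037 for the difference of responses, -0.38 in vehicle), Il1rap (0.0036) and Il18 (0.31), both for the difference of responses. With slide as a block they were Il1rn (-0.79 male, 0.53 for the difference, -0.66 vehicle, -0.13 dexamethasone), Il1rap (-0.12 male, 0.21 difference, -0.18 vehicle), Il33 (-0.075 male), Il1b (0.14 difference), Il1a (-0.28 vehicle) and Il1r2 (-0.020 dexamethasone), and within 1 slide the male values were the same. For the difference of responses of Il1b, the replicate block gave 0.0034, the replicate block within each sex 0.15 and array weights 0.34; for Il18, array medians gave 0.026 and array weights 0.073. Array medians gave -0.001 for Il1rap in females. The mean of probes gave 0.17 and the other probe 0.50 for Il1rn in females, and the other Il1r1 probe gave 0.14 between the sexes in dexamethasone.

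Leaving out 1 array, the difference of responses ran from -0.19 to 0.57 for Il1a, -0.60 to 0.15 for Il1b, -1.02 to 0.22 for Il1rn, -0.29 to 0.0016 for Il1rap and -0.20 to 0.21 for Il18. The male response ran from -0.38 to 0.86 for Il1rn; the female response ran from -0.29 to 0.054 for Il1rn, -0.014 to 0.12 for Il1rap and -0.57 to 0.18 for Il33. Between the sexes Il1r1 in vehicle ran from -0.076 to 0.24 and Il1rap in dexamethasone from -0.017 to 0.28. The causes were not tested. Low signal over background limits Il1a, Il1r2 and Il1r1 in male vehicle.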
